A study of Mus musculus with 10 samples.

Results

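Integrins, laminins and the proteins that link them in the basement membrane were followed in the tibialis anterior of mice, the muscle of mostly fast fibres at the front of the shin, in libraries labelled Lrtm1 knockout and libraries labelled control. The genes were chosen by symbol: integrin alpha and beta chains and other symbols that begin in the same way (Itga or Itgb followed by a digit or by l, v, m or x), the laminin alpha, beta and gamma chains, and Nid1, Nid2, Hspg2 and Agrn. The rule found 39 genes among the 13492 of the deposited table. Of these, 36 reached the mean log2 CPM (the log2 of a count corrected for library size) of at least 0 that was set for testing. The other 3 lay below it, and of these Itga2b and Itgal are given as values only. Itgb1bp2, also known as melusin, Lama2, Lamb1, Lamb2, Lamc1, Itga7 and Itgb1 were set apart as the 7 muscle-fibre members, and the remaining 32 are called the other members.

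The mice were C57BL/6 in background, 6 months old and fasted for 3 h, and gave 5 libraries labelled Lrtm1 KO and 5 labelled WT, and the controls are Lrtm1 flox mice per the series' design text. That text gives a smaller number per group than the labels. By litter, 2 KO and 1 WT libraries came from litter 108, 1 KO and 2 WT libraries from litter 110, and 2 KO and 2 WT libraries from litter 112. The Cre driver or germline allele behind the knockout, and whether the controls carry a Cre, are not given in these sources.

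A skeletal muscle fibre is wrapped in a basement membrane. Laminins are trimers of an alpha, a beta and a gamma chain that polymerise there, nidogens and perlecan (Hspg2) tie the laminin network to type IV collagen, and agrin links laminin to dystroglycan at the cell surface and organises acetylcholine receptors at the nerve-muscle junction. The fibre holds on to laminin through dystroglycan and through the integrin made of the Itga7 and Itgb1 chains. Lama2 encodes the alpha chain of the main laminin of adult muscle fibres, and its loss causes a congenital muscular dystrophy; Lama4 and Lama5 encode alpha chains found in the basement membranes of blood vessels and at the nerve-muscle junction.

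Lrtm1 itself was higher, not lower, in the libraries labelled KO. It stood at 6.20, 6.12, 6.10, 5.97 and 6.21 log2 CPM in KO replicates 1 to 5, against 5.61, 5.66, 5.73, 5.65 and 5.78 in WT replicates 1, 3, 4, 5 and 6. The log2 difference was 0.44 (SE 0.07, limma, adjusted p = 0.0344), and the call was lost when KO replicate 3 (adjusted p = 0.0789), WT replicate 1 (0.143), WT replicate 5 (0.0787) or WT replicate 6 (0.0529) was left out, or when the spread was modelled with no trend on expression (0.315). The value is for the whole gene and the deleted part is not stated, so it need not test the deletion. Every direction below is between libraries as labelled. In the whole table, limma with Benjamini-Hochberg adjustment called 41 of 12223 genes (33 higher, 8 lower), which is 0.335% of the genes tested. Of the lists of cell type markers, that of myofibres had the highest sum in all libraries. It was 88558 to 92605 CPM in those labelled KO and 79395 to 91772 CPM in those labelled WT.

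As a level per kilobase of transcript, 4 muscle-fibre members led the order, while Lama2 and Lamb1 stood in its middle. On the scale of log2 CPM per kb of the longest annotated transcript, Itgb1bp2, a chaperone of striated muscle that binds the Itgb1 tail, had the highest level, at 6.24 in libraries labelled KO and 6.22 in those labelled WT. Itgb1, the common beta chain, followed at 5.34 in KO and 5.30 in WT libraries. Lamb2, the laminin beta chain concentrated at synapses, came next at 4.60 in KO and 4.70 in WT libraries. Itga7 had a level of 4.53 in KO and 4.62 in WT libraries, and Itgb5, a beta chain that pairs with Itgav, had 4.43 in KO and 4.48 in WT libraries. Libraries of both groups overlapped between Lamb2 and Itga7 and between Itga7 and Itgb5, so the order among those neighbours is not set by these data.

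Among the linkers, Hspg2 had a level of 4.28 log2 CPM per kb in KO and 4.11 in WT libraries, and Nid1 had 3.92 in KO and 3.89 in WT libraries. Agrn, at 1.26 in KO and 1.24 in WT libraries, and Nid2, at 1.05 in KO and 1.16 in WT libraries, were far lower. Lamc1, the gamma chain of most laminins, had a level of 3.56 in KO and 3.50 in WT libraries. The 3 main alpha chains of laminin lay below it and close to each other. Lama5 had 2.42 in KO and 2.20 in WT libraries, Lama4 had 2.17 in KO and 1.95 in WT libraries, and Lama2 had 1.97 in KO and 2.02 in WT libraries. Libraries overlapped between Lama4 and Lama2 in the WT group but not in the KO group. The bottom of the order was held by Lama3, an alpha chain of epithelial laminin, and by the blood cell chains Itga2b and Itgal, the last at -3.18 in KO and -3.29 in WT libraries. Libraries primed with oligo-dT need not yield reads in proportion to length. With the median in place of the longest annotated transcript, the level per kb of 35 members moved by more than its SD, and Lamb2, Itgb5 and Lama5 led the order.

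**Figure D1:**
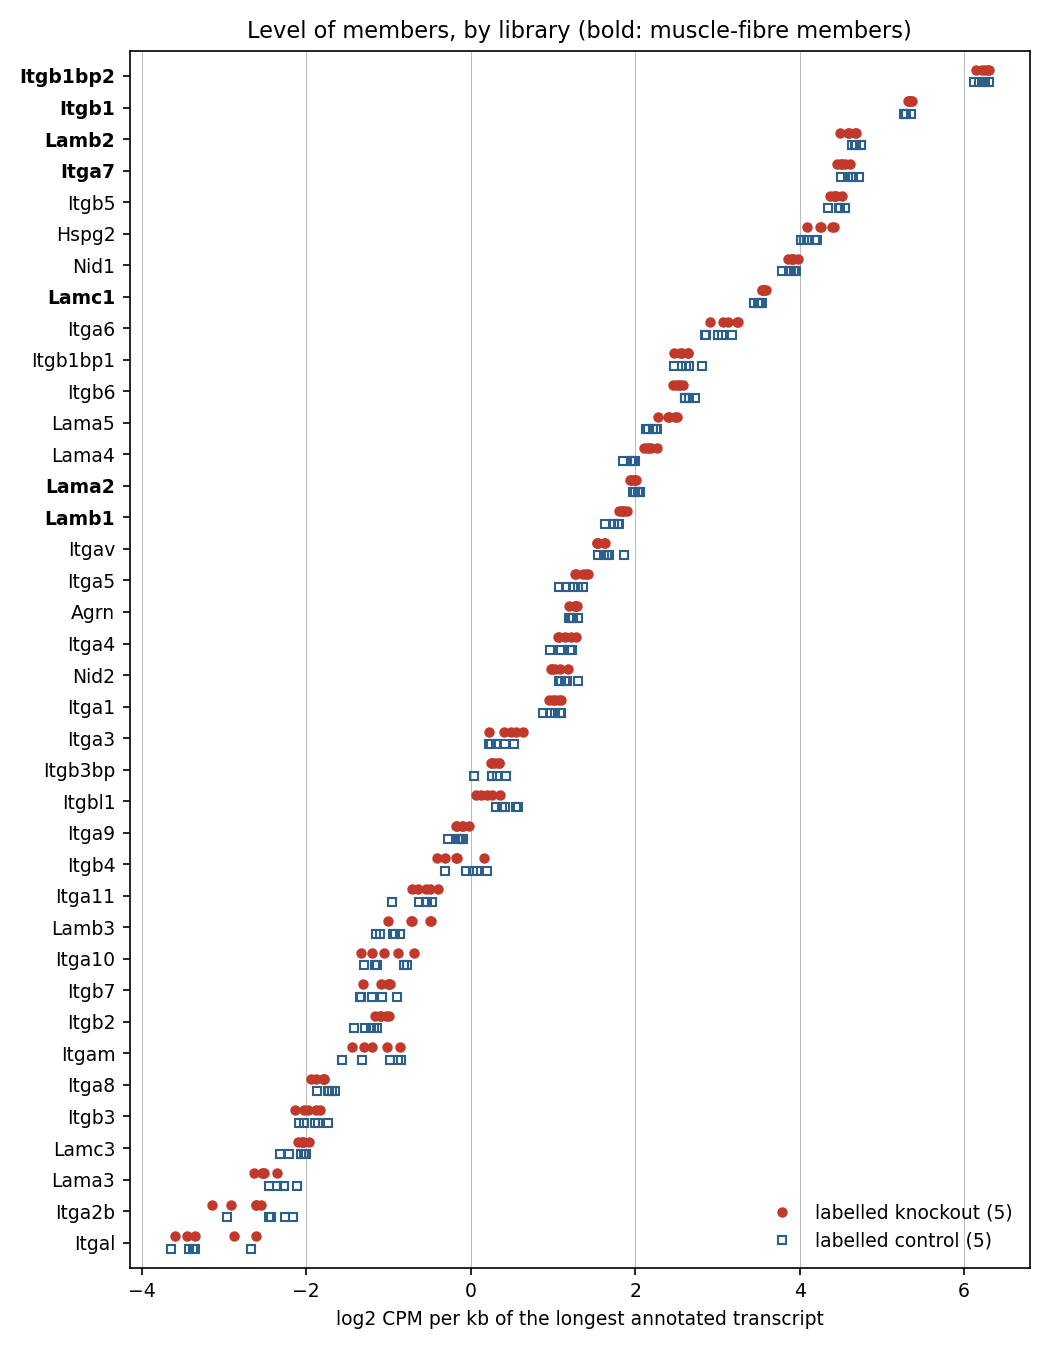
Level of members in log2 CPM per kb of the longest annotated transcript, with filled circles for the 5 libraries labelled knockout above open squares for the 5 labelled control, and muscle-fibre members in bold. Levels run from about 6.24 for Itgb1bp2 to -3.18 for Itgal in the libraries labelled KO, and the 2 groups lie close together beside the spread between genes.

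No member differed between the groups past the threshold. In the limma fit, 0 of the 36 tested members had an adjusted p under 0.05, and 2, Lama4 and Lama5, had an unadjusted p under 0.05; over all genes tested the 2 counts were 41 and 1232. The fit adds to litter and genotype 3 terms that the authors' adjustment had removed from the values, and so rests on 3 residual degrees of freedom. When all 6 residual degrees of freedom that litter and genotype leave were counted, Lama4 and Lama5 passed, both higher in the libraries labelled KO, and no member passed as lower. That fit called 8.62% of all genes tested, and 5.15% as higher, so 2 of 36 members is close to the share of all genes. Over the tested members the median log2 difference was 0.024, beside -0.0041 over all genes tested, with 22 members above 0 and 14 below. The differences ran from -0.25 for Itgbl1 to 0.31 for Lamb3.

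The median log2 difference was 0.022 over the 7 muscle-fibre members, 4 above 0 and 3 below, with a range from -0.095 to 0.11 and a lowest adjusted p of 0.665. It was 0.027 over the other members tested. With single libraries left out, the median of the muscle-fibre members ranged from -0.013 without KO replicate 3 to 0.047 without KO replicate 5, and it was below 0 only without KO replicate 3. Over the other members the median was 0.057 without KO replicate 3 and 0.0033 without WT replicate 5.

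Lama4 (ENSMUSG00000019846, GRCm38 chr10:38965515-39110188, plus strand) had the smallest p of all members. Its log2 CPM was 4.70, 4.78, 4.74, 4.86 and 4.76 in KO replicates 1 to 5, against 4.59, 4.57, 4.55, 4.45 and 4.55 in WT replicates 1, 3, 4, 5 and 6. Every library labelled KO lay above every library labelled WT, a separation in this direction that 8.56% of all genes tested also had. In linear units Lama4 averaged 27.3 ± 1.14 CPM in libraries labelled KO and 23.3 ± 0.87 CPM in libraries labelled WT (SD, n = 5 each), a ratio of 1.17. The log2 difference was 0.23 (SE 0.07, 95% interval 0.08 to 0.38; limma adjusted p = 0.281, and 0.0153 with 6 residual degrees of freedom). Within litters 108, 110 and 112 the difference was 0.15, 0.18 and 0.31.

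Lama5 (ENSMUSG00000015647, GRCm38 chr2:180176373-180225859, minus strand) was the other tested member whose groups stood apart upward. Its log2 CPM was 6.02, 5.91, 5.93, 5.78 and 6.00 in KO replicates 1 to 5, against 5.64, 5.67, 5.76, 5.77 and 5.73 in WT replicates 1, 3, 4, 5 and 6. The lowest library labelled KO, replicate 4, lay just above the highest labelled WT, replicate 5. The means were 61.0 ± 3.94 CPM in libraries labelled KO and 52.5 ± 2.12 CPM in libraries labelled WT (SD, n = 5 each). The log2 difference was 0.21 (SE 0.07, 95% interval 0.06 to 0.37; limma adjusted p = 0.320, and 0.0385 with 6 residual degrees of freedom), and by litter it was 0.32, 0.21 and 0.14. Leaving out single libraries kept the differences of Lama4 between 0.20 and 0.26 and those of Lama5 between 0.17 and 0.26.

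Lama2 (ENSMUSG00000019899, GRCm38 chr10:26980036-27619758, minus strand), on the same chromosome as Lama4, did not stand apart. Its log2 CPM was 5.21, 5.26, 5.26, 5.27 and 5.20 in KO replicates 1 to 5, against 5.30, 5.33, 5.23, 5.27 and 5.32 in WT replicates 1, 3, 4, 5 and 6. The groups overlapped, and both spanned a narrow range. The means were 37.8 ± 0.886 CPM in libraries labelled KO and 39.1 ± 1.05 CPM in libraries labelled WT (SD, n = 5 each), with a log2 difference of -0.049 (SE 0.06, 95% interval -0.18 to 0.08, limma adjusted p = 0.831).

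The sequences before the start sites of Lama5 and Lama2 are shown as examples of laminin alpha promoters of unlike composition. Each is the 250 bases upstream of the RefSeq start in GRCm38.p6, read 5′ to 3′ on the gene's own strand, with GC boxes (GGGCGG or its complement CCGCCC) in capitals.
Lama5, chr2:180225860-180226109, minus strand: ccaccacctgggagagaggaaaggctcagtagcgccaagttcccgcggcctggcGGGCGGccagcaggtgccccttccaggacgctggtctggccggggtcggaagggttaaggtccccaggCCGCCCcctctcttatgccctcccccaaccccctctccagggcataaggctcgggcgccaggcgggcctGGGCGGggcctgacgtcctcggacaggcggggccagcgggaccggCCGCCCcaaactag
Lama2, chr10:27616943-27617192, minus strand: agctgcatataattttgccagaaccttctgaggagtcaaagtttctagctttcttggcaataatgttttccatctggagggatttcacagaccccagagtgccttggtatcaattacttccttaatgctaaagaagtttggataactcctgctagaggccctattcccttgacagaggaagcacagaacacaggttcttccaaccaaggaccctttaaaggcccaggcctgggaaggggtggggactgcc
The Lama5 window held 4 GC boxes, 19 CG dinucleotides, 2 E-boxes (CANNTG, a palindrome) and 72.4% G or C. The Lama2 window held no GC box, no CG, 1 E-box and 47.2% G or C, and it lies inside a longer annotated transcript of the gene. Over all RefSeq promoter entries of this length, 32.7% held a GC box and 66.2% an E-box, with overlapping matches counted on both strands. Of the 39 genes, 26 had an entry, and 14 of their 30 entries held a GC box. Lama4 had no entry. These matches describe letters and no binding was measured, and the part of promoter composition in the differences was not tested.

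**Figure D2:**
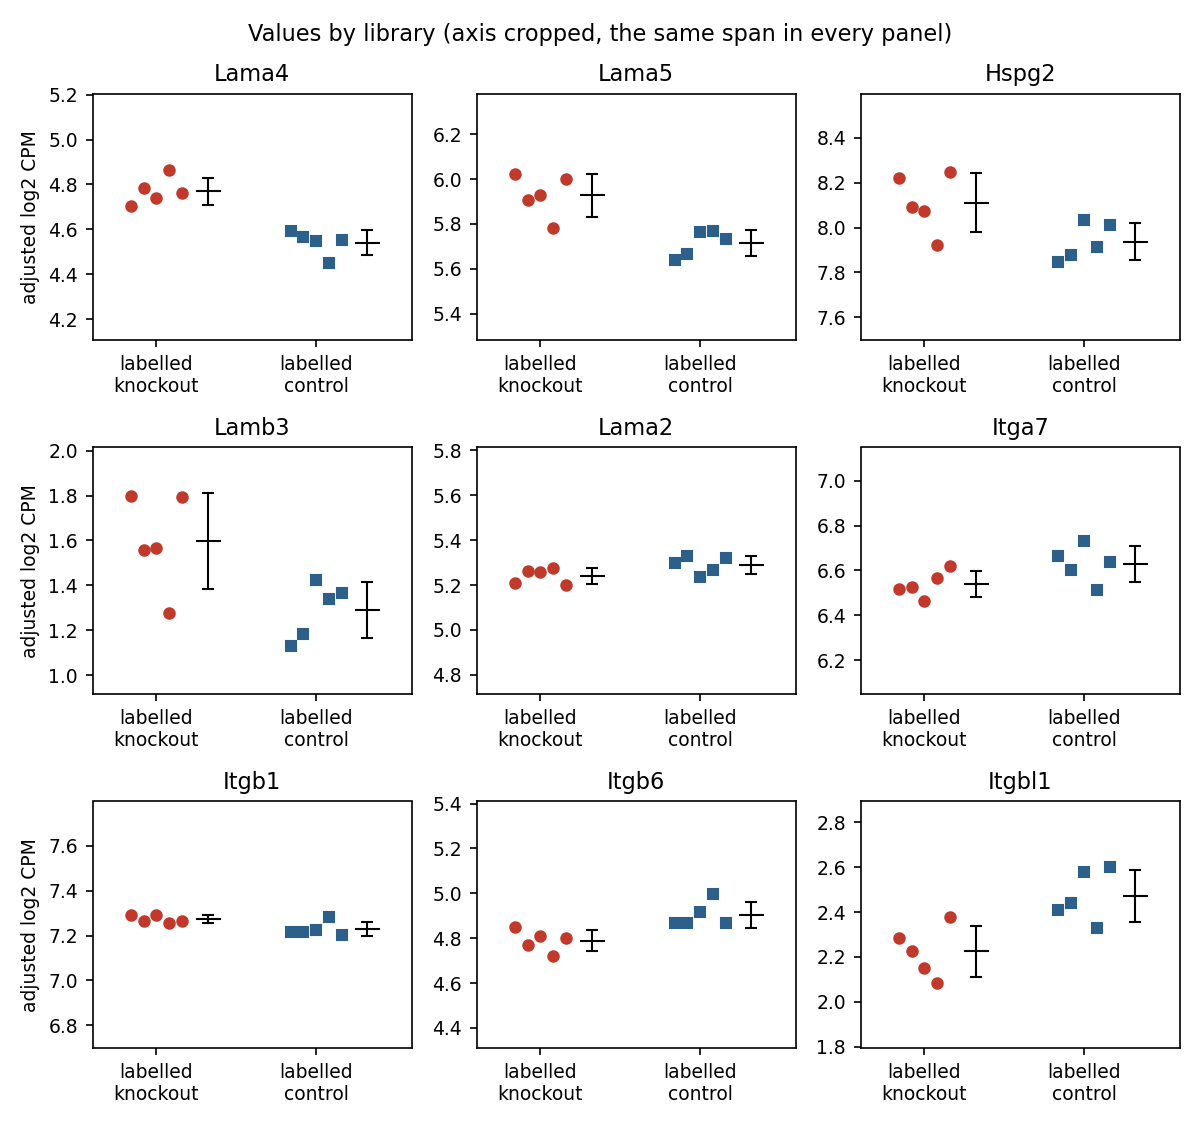
Adjusted log2 CPM of 9 members in each library, circles for the 5 labelled knockout and squares for the 5 labelled control, with the mean and SD as the cross and bar beside each group. Axes are cropped and span the same number of log2 units in every panel, and the groups stand apart for Lama4, Lama5 and Itgb6 only.

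The other laminin chains spread widely. Lamb3, a beta chain of epithelial laminin, had the largest difference of any tested member. Its log2 CPM was 1.80, 1.56, 1.57, 1.28 and 1.79 in KO replicates 1 to 5, against 1.13, 1.18, 1.42, 1.34 and 1.37 in WT replicates 1, 3, 4, 5 and 6. KO replicate 4 lay within the WT libraries, and the log2 difference of 0.31 (SE 0.16, 95% interval -0.05 to 0.67) had a limma adjusted p of 0.570. Lama3, the alpha chain that pairs with Lamb3, differed the other way, by -0.22 (limma adjusted p = 0.705). Of the 5 other laminin chains tested, 4 had differences above 0 and 1 below, with a median of 0.21; over all 9 laminin chains tested the median was 0.089. Lamc3, a gamma chain, differed by 0.089 (limma adjusted p = 0.917). Among the fibre chains, Lamb1 differed by 0.11, Lamc1 by 0.058 and Lamb2 by -0.095, with limma adjusted p of 0.674, 0.777 and 0.665.

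Of the linkers, Hspg2 came closest to a difference. Perlecan, its product, is a large heparan sulphate proteoglycan that binds laminin, nidogen and dystroglycan. Hspg2 (ENSMUSG00000028763, GRCm38 chr4:137468769-137570630, plus strand) had log2 CPM of 8.22, 8.09, 8.07, 7.92 and 8.25 in KO replicates 1 to 5, against 7.85, 7.88, 8.03, 7.91 and 8.01 in WT replicates 1, 3, 4, 5 and 6. KO replicate 4 lay among the WT libraries, and the other 4 KO libraries lay above all of them. The means were 277 ± 25.0 CPM in libraries labelled KO and 245 ± 14.2 CPM in libraries labelled WT (SD, n = 5 each). The log2 difference was 0.17 (SE 0.08, limma adjusted p = 0.499, and 0.153 with 6 residual degrees of freedom), and within litters 108, 110 and 112 it was 0.31, 0.12 and 0.12. Nid1 differed by 0.027, Agrn by 0.021 and Nid2 by -0.11, each within the spread of the libraries, with limma adjusted p of 0.922, 0.947 and 0.752.

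The laminin receptor of the fibre gave no call. Itga7 (ENSMUSG00000025348, GRCm38 chr10:128933818-128958282, plus strand) had log2 CPM of 6.52, 6.53, 6.46, 6.57 and 6.62 in KO replicates 1 to 5, against 6.66, 6.60, 6.73, 6.51 and 6.64 in WT replicates 1, 3, 4, 5 and 6. The groups overlapped, and the log2 difference was -0.09 (SE 0.06, 95% interval -0.23 to 0.05, limma adjusted p = 0.696). Its partner Itgb1 (ENSMUSG00000025809, GRCm38 chr8:128685654-128733200, plus strand) had 7.29, 7.27, 7.29, 7.26 and 7.27 in KO replicates 1 to 5, against 7.22, 7.22, 7.22, 7.28 and 7.20 in WT replicates 1, 3, 4, 5 and 6. Only WT replicate 5 reached the KO values, and the log2 difference was 0.045 (SE 0.05, 95% interval -0.07 to 0.16, limma adjusted p = 0.816). Itgb1bp2 differed by 0.022 (limma adjusted p = 0.941).

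Itga7 (-0.09) and Itgb1 (0.045) are counted with the muscle-fibre members and left out of the counts that follow. Among the other alpha chains used outside blood cells, 7 of 9 had differences above 0, with a median of 0.043, and none passed. Over all 12223 genes tested, 5936 lay above 0 and 6287 below. The signs of Itga1, Itga10 and Itga11 turned when single libraries were left out. The largest were Itga6, a laminin receptor chain of vessels and of satellite cells, at 0.13 (limma adjusted p = 0.71), Itga3 at 0.12 (0.803) and the fibronectin receptor chain Itga5 at 0.12 (0.737). Itgav, the chain of vitronectin receptors, differed by -0.10 (limma adjusted p = 0.729). The collagen receptor chains Itga1, Itga10 and Itga11 differed by 0.021, 0.0070 and 0.070, Itga9 by 0.043 and Itga8 by -0.10. With Itgb1 set aside, the 4 beta chains that were not grouped with the blood cell chains lay below 0, with a median of -0.084. Of these, Itgb3 (-0.053) crossed 0 when single libraries were left out. Itgb6, whose product with Itgav activates latent transforming growth factor beta, was the one member whose libraries labelled KO all lay below those labelled WT, as did 7.63% of all genes tested. Its log2 CPM was 4.85, 4.77, 4.81, 4.72 and 4.80 in KO replicates 1 to 5, against 4.87, 4.87, 4.92, 5.0 and 4.87 in WT replicates 1, 3, 4, 5 and 6. The gap between the groups was small, and the log2 difference of -0.11 (SE 0.07) had a limma adjusted p of 0.613, and 0.108 with 6 residual degrees of freedom. Itgb4, partner of Itga6, differed by -0.17 (limma adjusted p = 0.771) and Itgb5 by -0.048 (0.859).

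Of the chains of blood cell integrins, Itga4, which also marks cells other than leukocytes, was the highest at 4.35 to 4.56 log2 CPM in libraries labelled KO and 4.25 to 4.52 in those labelled WT. The others were low. Itgb2, the common leukocyte beta chain, had 0.41 to 0.57 in libraries labelled KO and 0.15 to 0.42 in those labelled WT, with a log2 difference of 0.17 (limma adjusted p = 0.814). The myeloid partner of Itgb2, Itgam, differed by -0.044, the lymphocyte beta chain Itgb7 by 0.097 and Itga4 by 0.040, and none of the 4 tested blood cell chains passed. Itgal, the lymphocyte partner, lay between -1.22 and -0.23 in libraries labelled KO and between -1.26 and -0.28 in those labelled WT. Itga2b, a platelet chain, lay between -1.37 and -0.77 in libraries labelled KO and between -1.18 and -0.39 in those labelled WT. Macrophage markers summed to 38.8 to 41.5 CPM in libraries labelled KO and 39.9 to 46.6 CPM in those labelled WT, and all 7 had differences below 0 with none past the threshold.

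Itgb1bp1, Itgb3bp and Itgbl1 were taken in by the spelling of their symbols and are not integrin chains. Itgbl1, a secreted protein with repeats like those of the beta chains, had log2 CPM of 2.28, 2.23, 2.15, 2.08 and 2.38 in KO replicates 1 to 5, against 2.41, 2.44, 2.58, 2.33 and 2.60 in WT replicates 1, 3, 4, 5 and 6. The groups overlapped through KO replicate 5 and WT replicate 5, and the log2 difference was -0.25 (SE 0.12, 95% interval -0.51 to 0.02, limma adjusted p = 0.529). Itgb1bp1, an inhibitor of Itgb1 activation, differed by -0.053, and Itgb3bp, a centromere protein, by 0.037.

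**Figure D3:**
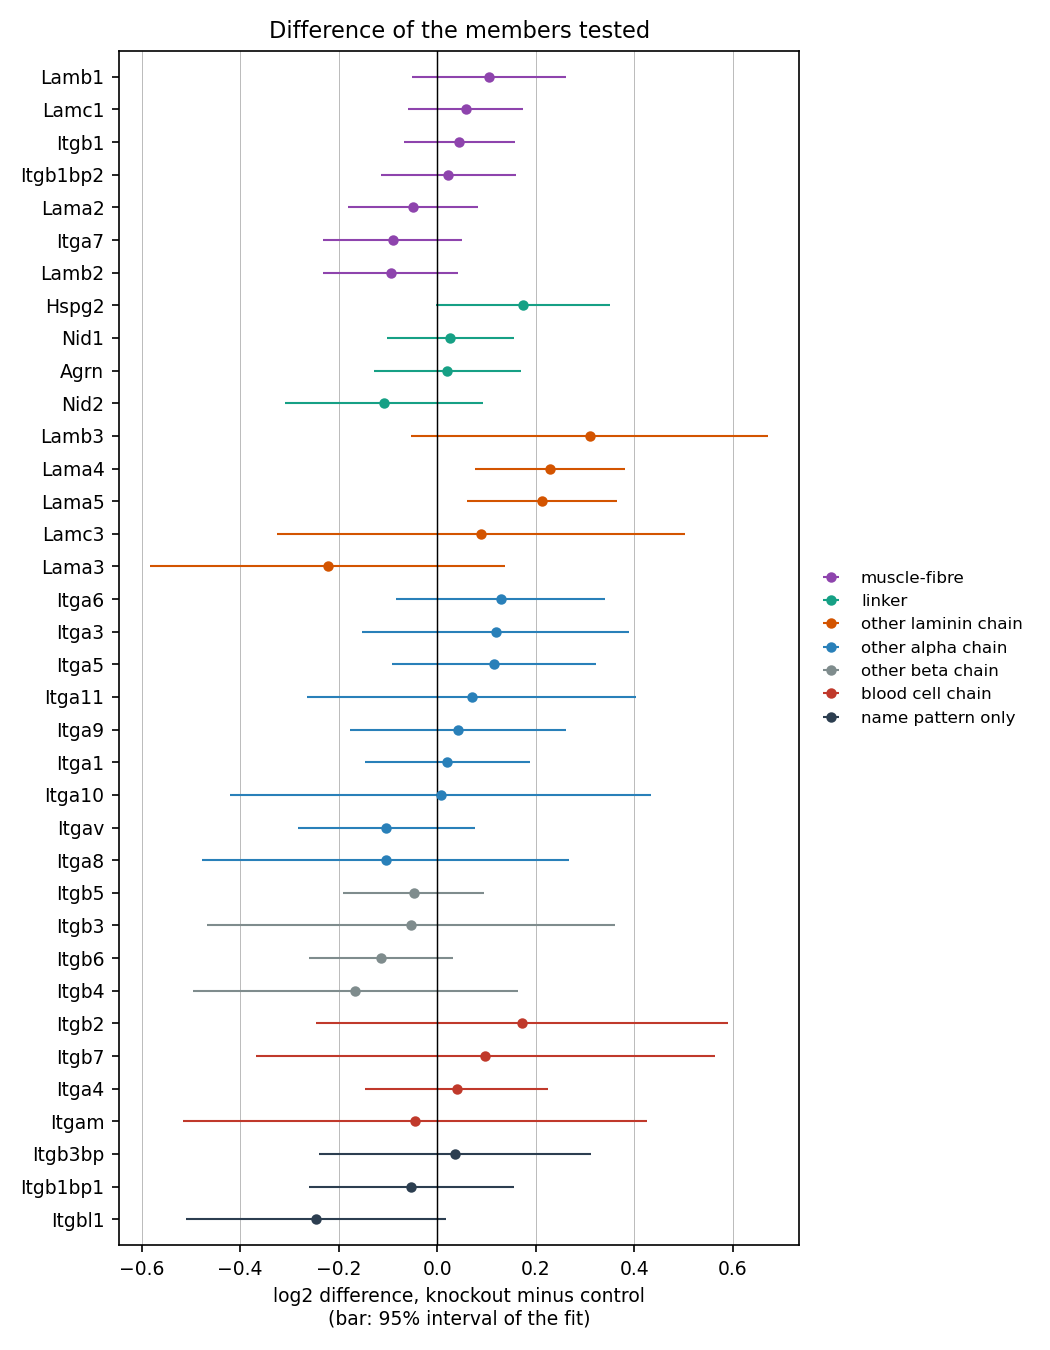
Log2 difference of the 36 tested members, libraries labelled knockout minus libraries labelled control, as points with the 95% interval of the limma fit as bars, grouped by role. The intervals of Lama4 (0.08 to 0.38) and Lama5 (0.06 to 0.37) are the only ones that do not include 0.

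The laminin alpha chains were also set against each other within each library. These shares and ratios were chosen after the values had been seen and are given as a description with no test. Lama5 made up 38.3 ± 2.23% of the summed laminin alpha level per kb in libraries labelled KO and 36.2 ± 1.5% in those labelled WT, and Lama4 made up 32.3 ± 1.53% in KO and 30.2 ± 1.04% in WT libraries. Lama2 made up 28.1 ± 0.863% in libraries labelled KO and 31.9 ± 0.811% in those labelled WT (SD, n = 5 each). For Lama2 the groups did not overlap, at 27.1 to 29.1% in KO and 30.6 to 32.8% in WT libraries. Nor did they for Lama3, at 1.16 to 1.38% in KO and 1.45 to 1.81% in WT libraries. Such shares have no counterpart over all genes to set beside them. The Lama2 share also falls when Lama4 and Lama5 rise, and the log2 CPM of Lama2 itself overlapped between the groups. With median transcript lengths the share of Lama2 was 9.32 to 11.0% in KO and 11.1 to 12.3% in WT libraries, and that of Lama5 was 81.3% in KO and 79.7% in WT libraries, so the level of a share depends on the length used.

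Ratios of 2 genes' CPM need no length for a comparison between groups. The log2 ratio of Lama4 to Lama2 ran from -0.52 to -0.41 in libraries labelled KO and from -0.82 to -0.69 in those labelled WT, with no overlap. That of Lama5 to Lama2 ran from 0.51 to 0.81 in KO and from 0.34 to 0.53 in WT libraries, and that of Lama5 to Lama4 averaged 1.16 in KO and 1.17 in WT libraries. Lama4 and Lama5 each stood apart on their own, so the ratios to Lama2 are not separate results on Lama2. Among beta chains, the log2 ratio of Lamb1 to Lamb2 ran from -2.80 to -2.60 in KO and from -3.01 to -2.85 in WT libraries, and Lamb2 held 85.2 ± 0.385% of the beta chain level per kb in KO and 87.1 ± 0.343% in WT libraries. With median transcript lengths Lamb2 held 96.2% in KO and 96.8% in WT libraries.

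Itga7 held 50.1 ± 1.80% of the level per kb summed over 14 integrin alpha chains in libraries labelled KO and 52.7 ± 2.31% in those labelled WT, and Itga6 held 18.9 ± 1.68% in KO and 17.1 ± 1.81% in WT libraries. Both pairs of ranges overlapped. Among 7 beta chains, Itgb1 held 57.9 ± 0.808% in KO and 56.1 ± 1.46% in WT libraries. Itgb6 held 7.90 to 8.50% in libraries labelled KO and 8.64 to 9.55% in those labelled WT. With median transcript lengths the Itgb6 share was 8.10 to 8.72% in KO and 8.60 to 9.89% in WT libraries, so the groups then overlapped. With those lengths Itga7 held 24.4% in KO and 25.8% in WT libraries, Itgb1 held 37.5 to 39.7% in KO and 35.7 to 39.6% in WT libraries, and Itgb5 was the largest beta share at 50.8% in KO and 51.9% in WT libraries.

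**Figure D4:**
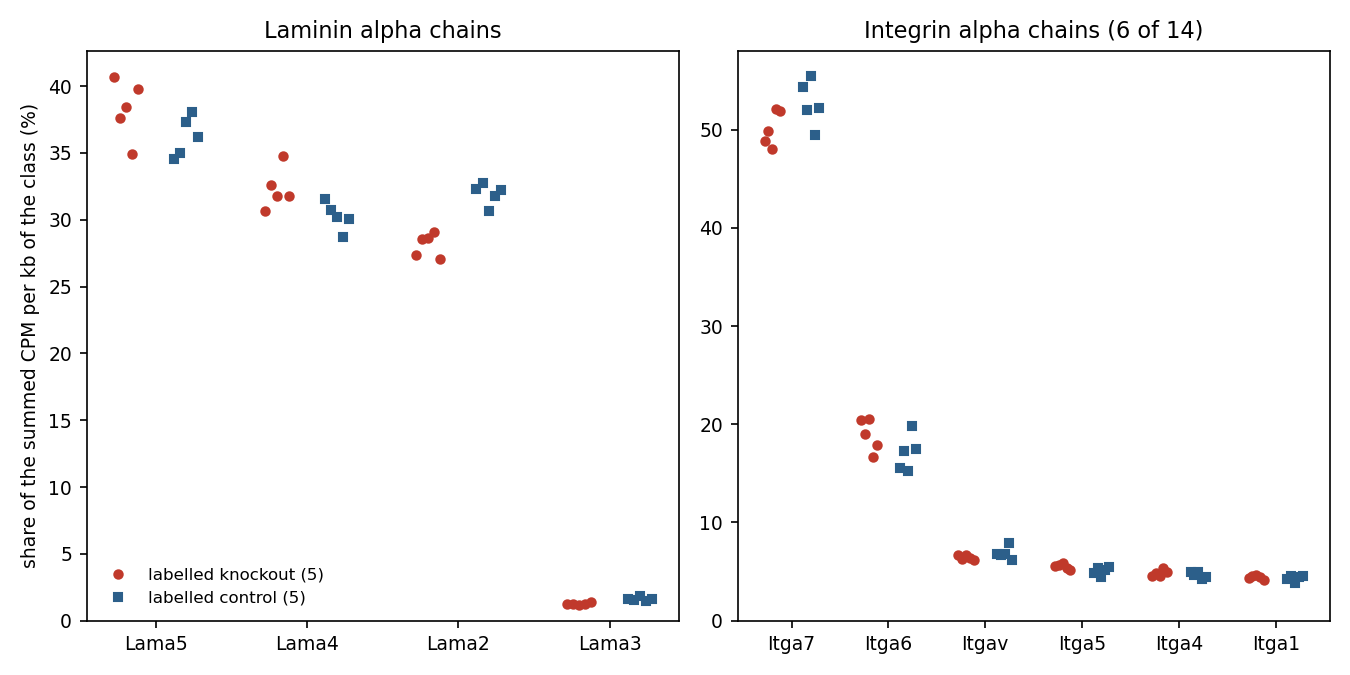
Share of the summed CPM per kb within the laminin alpha chains (left) and within the integrin alpha chains (right, 6 of 14 shown), in percent, 1 point per library, circles for libraries labelled knockout and squares for libraries labelled control. The Lama2 share lies at 27.1 to 29.1% in KO and 30.6 to 32.8% in WT libraries, while the Itga7 shares overlap. The Lama3 shares of the groups do not overlap either. The Lama2 share also falls when Lama4 and Lama5 rise.

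Other measures that differ among genes or samples were set beside the Lama4 and Lama5 values. Endothelial markers, all 8 of which were measured, summed to 336 to 359 CPM in libraries labelled KO (median 356) and 332 to 362 CPM in those labelled WT (median 338). Their median log2 difference was 0.0040, 4 above 0 and 4 below, and none passed in either fit. Pericyte and smooth muscle markers summed to 427 to 449 CPM in KO and 432 to 455 CPM in WT libraries, and fibroblast markers to 403 to 444 CPM in KO and 427 to 483 CPM in WT libraries. Markers of some other cell types were lower in the libraries labelled KO or spread widely. Adipocyte markers summed to 9.10 to 14.1 CPM in KO and 17.0 to 30.0 CPM in WT libraries. With 6 residual degrees of freedom 4 of 5 tested passed as lower, where 425 of all 12223 genes tested did so. None of the 5 passed in the limma fit. Satellite cell markers summed to 14.8 to 15.9 CPM in KO and 16.2 to 17.8 CPM in WT libraries, Schwann cell markers to 48.9 to 101 CPM in KO and 63.0 to 91.1 CPM in WT libraries, and tendon markers to 152 to 204 CPM in KO and 158 to 246 CPM in WT libraries; none of these passed in either fit. The part of these cell types in the members' differences was not tested. In bulk muscle, fewer cells of a type and less RNA per cell cannot be told apart.

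The second measure was transcript length. Differences over all genes ran higher for longer transcripts. Among all genes tested, the median log2 difference was -0.039 in the class of shortest transcripts and 0.045 in the class of longest, above 5.38 kb, when genes were divided by length into 5 classes of like size. In the longest class, 11.0% of genes passed as higher with 6 residual degrees of freedom and 15.3% had every library labelled KO above every library labelled WT. Lama4 (6.05 kb), Lama5 (11.4 kb) and Hspg2 (14.2 kb) belong to it, as do 18 of the tested members, whose median difference was 0.024. Lama2 (9.61 kb) belongs to it too. The part of length in the differences was not tested.

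**Figure D5:**
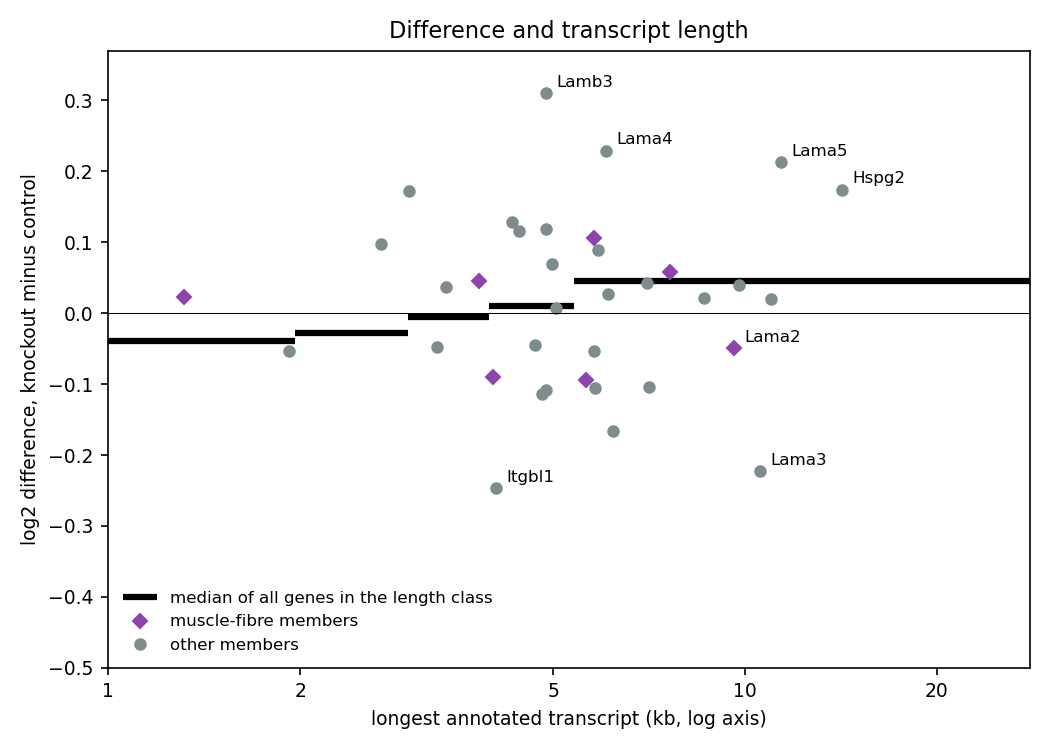
Log2 difference, libraries labelled knockout minus libraries labelled control, against the length of the longest annotated transcript in kb on a log axis, for the 36 tested members (diamonds for muscle-fibre members, circles for the others) with the median of all genes in each length class as black bars. The length axis is cropped around the members. The bars climb with length, to 0.045 in the longest class, and Lama4, Lama5 and Hspg2 lie above them while Lama2 and Lama3 lie below.

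The partners of these genes inside and outside the fibre were read from lists of pathway genes. Of 28 tested focal adhesion adaptors, which tie integrin tails to actin, 1 passed as higher in the limma fit. Over all genes tested, 0.335% passed in that fit in either direction. The adaptor's call was lost without KO replicate 3, WT replicate 1, WT replicate 5 or WT replicate 6, and with no trend on expression. With 6 residual degrees of freedom 3 passed as higher and 1 as lower, where 5.15% of all genes tested passed as higher and 8.62% in either direction. Among the higher were the talin gene Tln2 (log2 difference 0.21, limma adjusted p = 0.208 in the fit with 3 residual degrees of freedom) and vinculin, Vcl (0.19, limma adjusted p = 0.262), and the lower was Tns3, a tensin (-0.22, limma adjusted p = 0.413).

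Of 29 tested other components of the basement membrane, none passed in the limma fit. With 6 residual degrees of freedom 3 passed, all higher in the libraries labelled KO, beside 5.15% of all genes tested and 11.0% of those in the longest length class: Vwa1, a perlecan-binding matrix protein (log2 difference 0.23), Col15a1, a basement membrane collagen (0.18), and Col4a2, a chain of type IV collagen (0.16). Of 24 genes of the dystroglycan complex and the enzymes that glycosylate it, none passed in the limma fit and 1 passed as higher with 6 residual degrees of freedom, the dystrophin relative Utrn (0.15), and the list's median was -0.00082. None of 12 genes of the agrin receptor pathway passed in either fit; the smallest p belonged to Chrnd, a receptor subunit (0.45, limma adjusted p = 0.356), and Musk, the agrin receptor kinase (0.44, limma adjusted p = 0.413). Of 13 regulators of integrin activation none passed in the limma fit, and the tetraspanin Cd82 passed as higher with 6 residual degrees of freedom (0.33).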

How the data were processed

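Tibialis anterior RNA was taken up in TRIzol and sequenced from directional libraries primed with oligo-dT, per the labels' protocols. Per the submitters' processing notes, reads were handled with fastp (trimming), kallisto (assignment to transcripts) and limma, with no versions; neither build nor annotation is given in the sources used here. The deposited values are log2 CPM that the authors had adjusted, for 13492 genes of which 146 have no symbol. Converted back, each library sums to between 960166 and 1016398 CPM, with a median between 3.35 and 3.36 log2 CPM. Counts cannot be worked back from adjusted values, so the depth behind a value is unknown.

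The deposited log2 values had litter removed with genotype kept, and their residuals span 3 dimensions where litter and genotype leave 6. limma 3.58.1 in R 4.3.3 (lmFit, eBayes with a mean-expression trend, two-sided) was fitted to the 12223 genes whose mean log2 CPM was 0 or more, with litter, genotype and the 3 removed terms, and p-values were Benjamini-Hochberg adjusted over all of these genes with a threshold of 0.05. The alternative counts all 6 degrees. Standard errors are lower bounds, because what those terms shared with genotype is lost, and SDs leave out the variation that was removed. No pseudocount was added. The steps were tested on simulated data, where a pass was required only with removed terms independent of genotype. The labels do not state that libraries are separate animals, so p-values measure the spread between samples, which may be technical.

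Lengths and positions came from GENCODE M21 (GRCm38), matched by Ensembl identifier for all 39 members and 99.1% of tested genes. Promoters came from the RefSeq GRCm38.p6 table, matched by symbol, with member entries on chromosome 18 left out. Whether counting used the strand is not given, so overlapping and antisense genes may share reads. Members, roles, pathway lists and marker lists were chosen with earlier results of these data known. Library values are given for Itga7, Itgb1 and Lama2, for members past the threshold in either fit, for the 6 of smallest p and for the 2 of largest difference; from each pathway list up to 4 genes past the threshold in either fit are named, or the 2 of smallest p. Alternatives changed the residual degrees of freedom, litter term, replicate block, expression minimum, added CPM, centring, trend, transcript length and the libraries included. Of the genes covered, 1 member and 1 gene of the pathway lists are not reported here.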

Additional observations from a re-analysis of the deposited data

Results flagged for a closer look

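In 78 groups of 5 libraries, 1 group of each kind for each member, the highest or lowest library was compared with its neighbours, and 2 stood apart from the other 4 by more than the critical share of the range (0.71). Chance flags about 1 in 20 such groups. Agrn was 4.30 log2 CPM in KO replicate 4, against 4.37 to 4.40 in the other KO libraries. Itgb1 was 7.28 log2 CPM in WT replicate 5, against 7.20 to 7.22 in the other WT libraries.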

How the results depend on the processing

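Of 638 member differences recomputed over 18 settings, 613 kept their direction and side of the threshold, 2 passed it (Lama4 and Lama5, with 6 residual degrees of freedom) and 23 turned sign, all when 1 library was left out. The members called were 2 with 6 residual degrees of freedom and 0 in every other setting. Over all genes the count was 41 as reported, 1054 with 6 residual degrees of freedom, 128 with the replicate block, 1 with no trend and 52 with no litter term. Leaving out 1 library gave 8 to 60, with 11 without KO replicate 3, 8 without WT replicate 1, 20 without WT replicate 5 and 17 without WT replicate 6. Deviations of same-numbered samples had correlations of -0.85, 0.45, 0.03 and -0.50 for replicates 1, 3, 4 and 5. Removing litter ties the deviations within a litter to each other, and replicates 1, 3 and 5 each lie within a litter. These correlations therefore cannot show whether the numbers are pairs. The labels do not state pairs and none were taken, and 0 members passed with the block. Lrtm1 differed by 0.44 with no trend and by 0.39 to 0.49 with 1 library left out. The median of the muscle-fibre members ran from -0.013 to 0.047 with 1 library left out, that of the other members from 0.0033 to 0.057 and that of all members from 0.0062 to 0.043. With 1 library left out, the differences that crossed 0 ran from -0.0036 to 0.043 for Agrn, -0.017 to 0.052 for Itga1, -0.11 to 0.11 for Itga10, -0.040 to 0.12 for Itga11, -0.012 to 0.096 for Itga4, -0.19 to 0.047 for Itgam, -0.10 to 0.0096 for Itgb1bp1, -0.013 to 0.054 for Itgb1bp2, -0.11 to 0.0091 for Itgb3, -0.036 to 0.094 for Itgb3bp, -0.0028 to 0.19 for Itgb7 and -0.0058 to 0.057 for Nid1. Over all settings the limma adjusted p ran from 0.0153 to 0.477 for Lama4, 0.0385 to 0.667 for Lama5 and 0.153 to 0.839 for Hspg2. The cause of these changes was not tested. Every setting other than the one that counts 6 residual degrees of freedom rests on 3.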
